A study of Drosophila melanogaster with 6 samples.

Results

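The BBSome genes BBS1, BBS4, BBS5, BBS8 and BBS9 and the tubby family gene ktub (king tubby) were followed in the proboscis, the feeding organ of the fly, which bears many of its taste bristles. They were chosen by symbol in the annotation of the array and made up 6 of the 11982 genes that had a probe set of their own, with 1 such probe set each. RNA came from dissected proboscises of male Drosophila melanogaster that were homozygous or heterozygous for poxn70, an allele of Pox neuro (Poxn), with 3 biological replicates per genotype and 1 array per replicate. Each array was prepared from 164 to 280 proboscises, and the flies had eclosed 8 to 18 days before. Both genotypes carried poxn70, so the control group was heterozygous and not wild type, and the labels give no other allele, strain or balancer for either genotype. Values are log2 GCRMA values, in which probe sets without signal lie in a narrow band, and values under 3 were treated as background. The replicates are biological per the labels' design text, and the number of arrays limits the precision of every value.

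Poxn is a transcription factor with a paired domain, and bristles that would become taste bristles develop as mechanosensory ones without it. Taste neurons receive their stimuli on an outer dendritic segment that is a cilium. The BBSome is a coat-like complex that moves membrane proteins along and out of cilia together with the intraflagellar transport (IFT) trains, and mutations of its human subunits cause Bardet-Biedl syndrome. Tubby family proteins bind phosphoinositides and the IFT-A complex and bring membrane proteins into cilia. In the fly, ciliated cells are the sensory neurons and the developing sperm, and BBSome and IFT genes are known mainly from the sensory neurons. The comparison asks whether transcripts of this machinery depend on Poxn in the proboscis.

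The tissue and the arrays were checked first. Poxn itself was read under the background limit in all 6 arrays, at 2.65, 2.37 and 2.37 in homozygotes and at 2.36, 2.30 and 2.37 in heterozygotes, so its probe set gave no check of the genotype labels. Of 8 neuronal marker genes on the array 6 were above background, as were all 8 taste neuron markers, while the 4 chordotonal neuron markers (fd3F, nan, iav and tilB) and the 3 testis markers were under 3 in all 6 arrays. Homozygous replicate 1 stood apart, with correlations of 0.971 and 0.973 to the other homozygous arrays, against 0.994 between those arrays and 0.990 to 0.996 among heterozygotes. Differences that moved by more than 1.5 times or changed sign without it are therefore also given without it. Photoreceptor transcripts differed between arrays without following genotype: Arr2, an arrestin of photoreceptors, was at 13.27, 14.15 and 11.34 in homozygotes and at 12.04, 13.92 and 13.90 in heterozygotes. The share of eye tissue in each sample was not tested. Hemocyte markers had higher means in homozygotes in 3 of 3 genes: Hml, a hemocyte clotting protein, was at 9.92, 9.91 and 9.65 in homozygotes and at 9.11, 8.91 and 8.89 in heterozygotes, a difference of 0.86 without overlap (limma adjusted p = 0.111), while eater (0.44, and 0.21 without homozygous replicate 1) and NimC1 (0.23) overlapped. Their summed level on the linear scale ranged from 1566 to 1943 in homozygotes and from 1092 to 1356 in heterozygotes, and its part in the results was not tested. With all 6 arrays the glial, muscle and fat body markers above background overlapped between genotypes. The overlap of the glial markers repo and moody rested on homozygous replicate 1. Without that array repo moved from -0.40 to -0.52 (limma unadjusted p = 0.0198, adjusted p = 0.338). In the same fit moody moved from -0.16 to -0.36 (unadjusted p = 0.00583, adjusted p = 0.211). The muscle genes up and Mlc2 moved from -0.73 to 0.84 and from -0.96 to -0.44, and the fat body gene apolpp from 0.04 to -0.03.

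BBSome genes and ktub had lower means in homozygotes wherever they were above background. This held for 5 of the 6 genes, with differences from -2.02 (BBS9) to -0.42 (BBS8) and a median of -1.23 on the log2 scale. Over the 7705 genes above background in at least 1 genotype, the median difference was 0.04. None of the 6 passed limma's test over all probe sets at an adjusted p of 0.05, where 0.314% of 18769 probe sets were called lower and 0.0586% higher. At an unadjusted p under 0.05, BBS9, BBS4 and ktub were lower, which is 3 of 6 against 2.90% of all probe sets, and 0 of 6 were higher, against 4.33%. In 5 of 6 the 3 homozygous values all lay under the 3 heterozygous ones, against 4.48% of all probe sets, and in 0 of 6 was the order the reverse (18.5%). Among the 7705 genes above background, a group that being high in 1 genotype is enough to enter, these shares were 5.84% at the unadjusted p and 8.64% for lower values without overlap. Fewer ciliated neurons and less RNA of these genes in each neuron cannot be told apart in RNA from a whole organ.

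**Figure D1:**
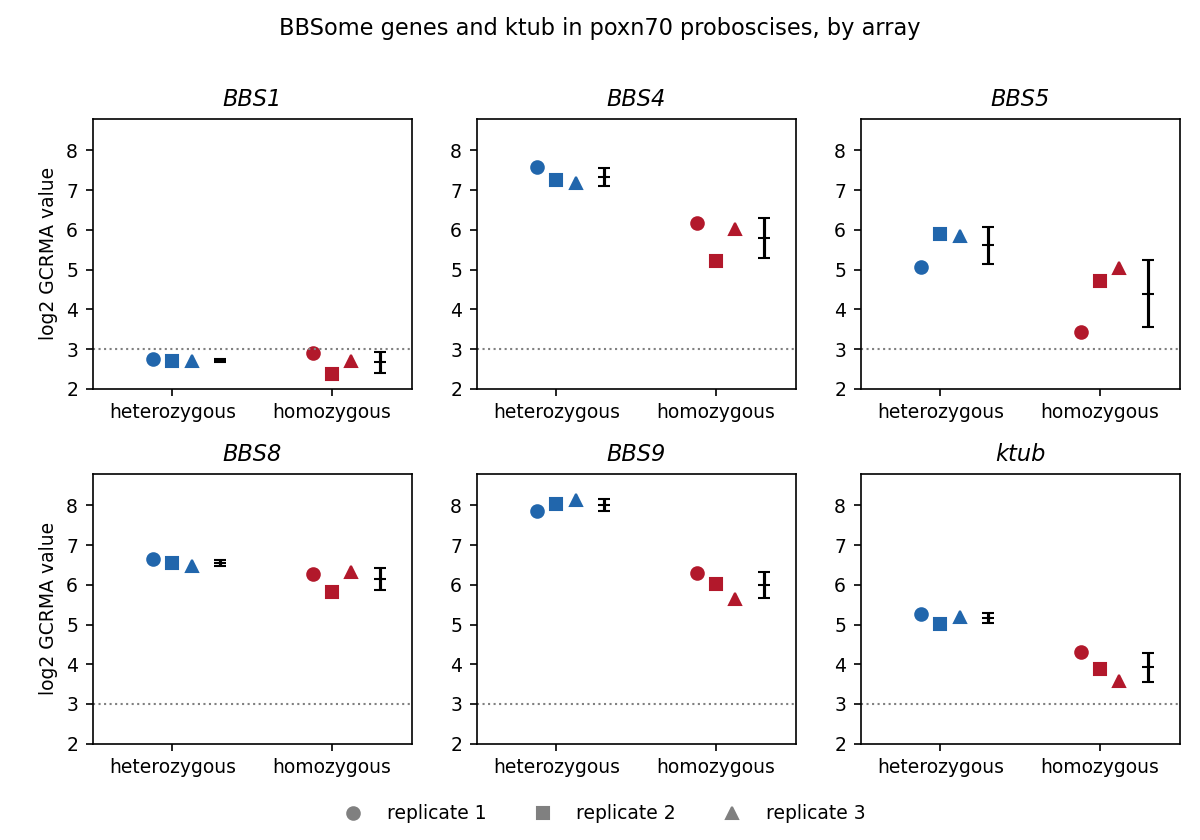
Log2 GCRMA values (vertical axis) of the BBSome genes and ktub in each array of heterozygous (blue) and homozygous (red) proboscises, with the marker shape giving the replicate number, the black bar the mean ± SD over 3 arrays, and the dotted line the background limit of 3. BBS1 lies under the limit in all 6 arrays, and in the other genes every homozygous value lies under every heterozygous one.

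The scaffold and propeller subunits BBS9 and BBS1 gave the largest difference and no signal. BBS9, a beta-propeller protein that holds other subunits together in the mammalian complex, was read at 6.31, 6.03 and 5.64 in the 3 homozygous arrays and at 7.86, 8.04 and 8.15 in the 3 heterozygous arrays. The groups were separated by a gap wider than the spread within either of them. The means were 5.99 ± 0.33 (SD, n = 3) and 8.02 ± 0.15 (SD, n = 3), which is a difference of -2.02 ± 0.22 (SE, 95% interval -2.59 to -1.45) or 4.06-fold lower. BBS9 ranked 76th of all probe sets by p, and its adjusted p of 0.0519 (limma) lay just past the threshold. It passed in 6 of 18 alternative fits. These were the 3 ways of treating dim probe sets (adjusted p from 0.0167 to 0.0211), centring on bright probe sets (0.0308), the replicate number as a random block (0.0252) and averaging of probe sets per gene (0.0485). In the other 12 it lay between 0.0503 and 0.334, the largest with the replicate number as a fixed block. BBS1, the propeller subunit that binds the small GTPase Arl6 in mammals, was read at 2.91, 2.38 and 2.71 in homozygotes and at 2.75, 2.69 and 2.70 in heterozygotes. All 6 values were under the background limit, so no fold is given for this subunit and no difference can be read from its probe set.

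The tetratricopeptide-repeat subunits BBS4 and BBS8 differed in the size of their shift. BBS4 was read at 6.17, 5.22 and 6.01 in homozygotes and at 7.59, 7.25 and 7.18 in heterozygotes. Every homozygous array was lower by about 1 log2 unit or more, with homozygous replicate 2 the lowest. The means of 5.80 ± 0.51 (SD, n = 3) and 7.34 ± 0.22 (SD, n = 3) gave a difference of -1.54 ± 0.32 (SE, 95% interval -2.34 to -0.74), or 2.90-fold lower, with an unadjusted p of 0.00404 and an adjusted p of 0.26 (limma). BBS8 was read at 6.28, 5.81 and 6.32 in homozygotes and at 6.64, 6.54 and 6.49 in heterozygotes. The groups did not overlap, but homozygous replicates 1 and 3 came close to the heterozygous values. The difference of -0.42 ± 0.22 (SE, 95% interval -0.97 to 0.13) did not pass at an unadjusted p of 0.11 (limma), and decreases of more than 0.97 on the log2 scale lay outside the interval.

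BBS5, the subunit whose pleckstrin-homology-like domains bind phosphoinositides in the mammalian complex, was read at 3.44, 4.70 and 5.05 in homozygotes and at 5.08, 5.89 and 5.85 in heterozygotes. In both genotypes replicate 1 was the lowest, and the highest homozygous value (replicate 3) lay just under the lowest heterozygous one (replicate 1). The difference was -1.21 ± 0.52 (SE, 95% interval -2.53 to 0.10), with an unadjusted p of 0.0646 and an adjusted p of 0.611 (limma). Without homozygous replicate 1 it was -0.73 (unadjusted p = 0.0973). With the replicate number as a fixed block the unadjusted p of BBS5 was 0.0231, which made it the fourth gene under 0.05, against 3.23% of all probe sets lower at that p in the same fit.

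The tubby protein ktub acts in the fly in the placing of the TRPV channels Nan and Iav in the cilia of chordotonal neurons and in the uptake of rhodopsin in photoreceptors. It was read at 4.31, 3.89 and 3.58 in homozygotes and at 5.25, 5.01 and 5.20 in heterozygotes. The heterozygous arrays lay close together, and the highest homozygous value was still clearly lower than all of them. The means of 3.92 ± 0.37 (SD, n = 3) and 5.15 ± 0.13 (SD, n = 3) gave a difference of -1.23 ± 0.25 (SE, 95% interval -1.86 to -0.60), or 2.34-fold lower, with an unadjusted p of 0.00368 and an adjusted p of 0.25 (limma). BBS4, BBS9 and ktub kept an unadjusted p under 0.05 in all 18 alternative fits, and BBS4 and ktub passed the adjusted threshold in none of them. Without homozygous replicate 1 the differences were -2.18 for BBS9, -1.72 for BBS4, -1.42 for ktub and -0.49 for BBS8.

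**Figure D2:**
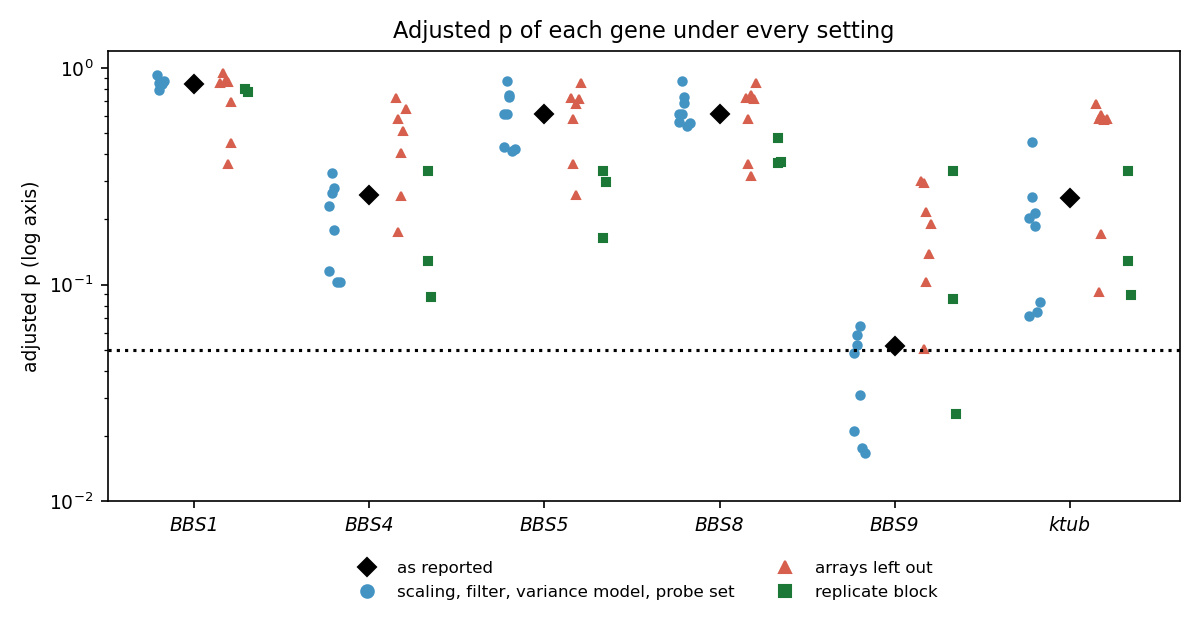
Adjusted p (vertical log axis) of the 6 genes in the fit as reported (black diamonds), under other scalings, filters, variance models and probe set rules (blue circles), with arrays left out (red triangles) and with a replicate block (green squares), with the dotted line at 0.05. BBS9 falls on both sides of the line, from 0.0167 to 0.334, and the other 5 genes stay above it.

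The sizes of the shifts were compared between genes within each array, which sets changes and not levels side by side. Of 10 pairs among the 5 genes above background, 4 had values per array that did not overlap between genotypes. In each of these 4 the exact permutation test over the 6 arrays, two-sided, gave p = 0.1, the smallest that 3 against 3 arrays allow, so no pair could reach 0.05, with or without adjustment over the 10. The difference of BBS9 exceeded that of BBS8 by 1.60, that of BBS4 exceeded BBS8 by 1.12, that of ktub exceeded BBS8 by 0.81 and that of BBS9 exceeded ktub by 0.79, each on the log2 scale. BBS8 had the smaller shift in 3 of the 4 separated pairs. The pairs that overlapped were the 4 that contain BBS5, with differences between their shifts of up to 0.81 in size, and BBS4 against BBS9 (0.48) and against ktub (-0.31). Within same-numbered arrays, 5 of the 10 pairs kept one sign in all 3 numbers: the 4 that did not overlap and BBS5 against BBS8, in which the shift of BBS5 was the larger by 1.28, 0.47 and 0.63. With 3 numbers an exact sign-change test, two-sided, cannot give a p under 0.25.

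Neuronal markers also had lower means in homozygotes, in 5 of the 6 above background. Each differed by less than BBS9, but Appl and elav differed by nearly as much as ktub (-1.23) and BBS5 (-1.21) and by more than BBS8 (-0.42). The mean of the 6 neuronal genes above background was 8.12, 8.17 and 7.84 in homozygotes and 8.70, 8.53 and 8.66 in heterozygotes, a difference of -0.59 without overlap. Their summed level on the linear scale, over all 8 on the array, ranged from 2383 to 3332 in homozygotes and from 4161 to 4557 in heterozygotes. The list was not uniform: Appl, a neuronal membrane protein, differed by -1.16, elav, an RNA-binding protein of all neurons, by -1.17 with homozygous replicate 1 far under the others (6.28 against 8.40 and 8.27; -0.48 without it), and Snap25, a synaptic fusion protein, by 0.04, and none of the 8 was called by limma over all probe sets. Relative to the mean of these 6 genes in the same array, BBS9 differed by -1.44, BBS4 by -0.95 and ktub by -0.64, each without overlap between genotypes (exact permutation test, two-sided, p = 0.1 for each, the smallest possible). BBS5 (-0.63, p = 0.5) and BBS8 (0.17, p = 0.6) overlapped on that scale in the same exact test. Without homozygous replicate 1 the differences on that scale were -1.55 for BBS9, -1.10 for BBS4, -0.80 for ktub, -0.11 for BBS5 and 0.14 for BBS8. Of 8 taste neuron markers 4 were called lower by limma over all probe sets, against 0.314% of all probe sets, and 0 with the replicate number as a fixed block. In this list 5 genes had homozygous values under the background limit, Gr32a and ppk28 in all 3 arrays. With values under 3 set to 3, the mean over the 8 genes was 3.71, 4.28 and 4.18 in homozygotes and 7.10, 7.54 and 7.77 in heterozygotes, and the difference of -3.41 is a bound, the true one being at least as large. The list was not uniform either, from Gr66a, a bitter taste receptor (-6.03, with 1 homozygous value under the limit), to Gr5a, a sugar receptor (-0.80, with overlap). Its summed level, with dim values as read, ranged from 139.9 to 313.7 in homozygotes and from 2440.0 to 3835 in heterozygotes. Relative to the mean of these 8 taste neuron markers, also with dim values as read, the direction was the reverse. BBS9 was higher in homozygotes by 1.58, BBS4 by 2.06, ktub by 2.37, BBS5 by 2.39 and BBS8 by 3.18. Each was without overlap between genotypes (exact permutation test, two-sided, p = 0.1 for each). The part of neuron number in the lower values of the BBSome genes and ktub was not tested.

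**Figure D3:**
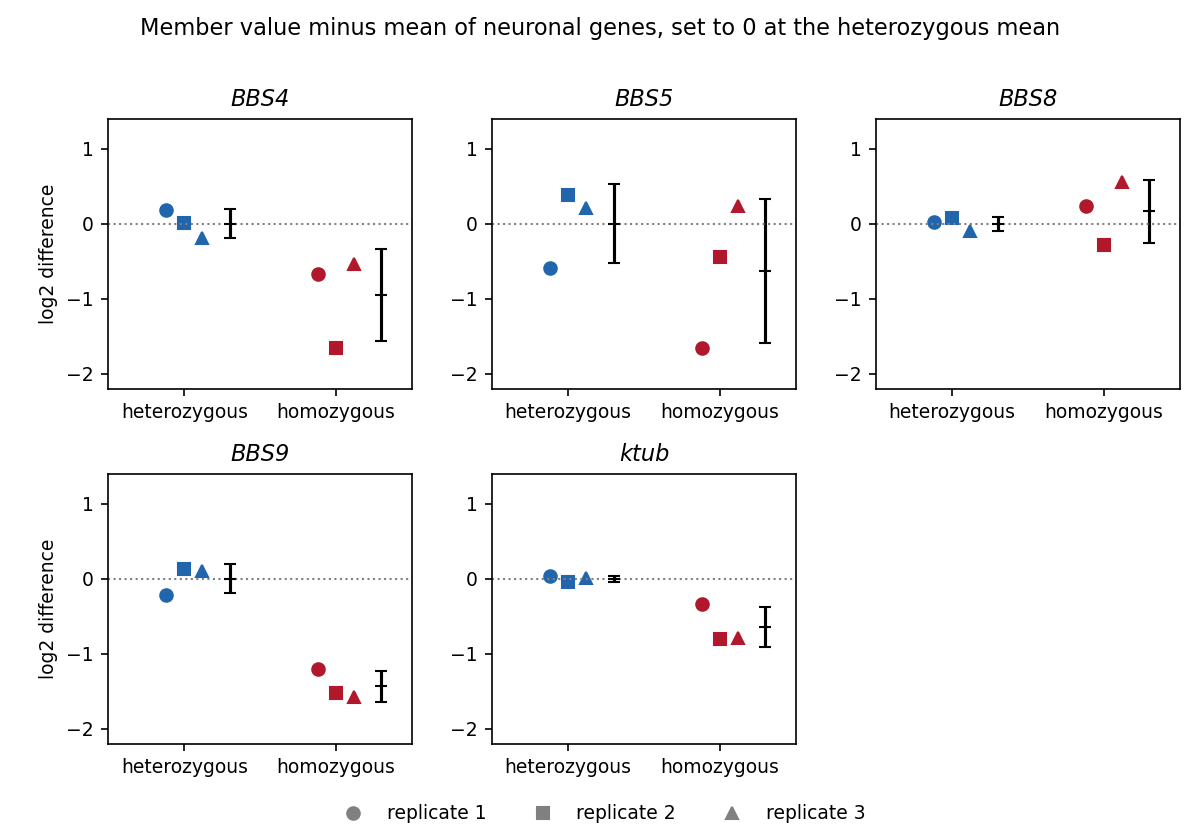
Log2 value of each gene minus the mean of 6 neuronal genes in the same array (vertical axis, set to 0 at the heterozygous mean of each gene), in heterozygous (blue) and homozygous (red) arrays, with the marker shape giving the replicate number and the black bar the mean ± SD over 3 arrays. BBS9, BBS4 and ktub lie under 0 in all 3 homozygous arrays, and BBS5 and BBS8 overlap between genotypes; BBS1 is left out because it was at background.

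The other ciliary genes above background, among them partners of the BBSome and of tubby, ranged from a difference of -3.67 (Ir25a) to 0.19 (INPP5E) on the log2 scale. Of 44 places in 8 lists of ciliary genes, 37 had a probe set of their own and 24 were above background, with a median difference of -0.39 beside -1.23 for the BBSome genes and ktub, 2 medians whose difference was not tested. Without homozygous replicate 1 these medians were -0.61 and -1.42. Over all probe sets 1 was called lower (Ir25a) and 0 higher, against 0.314% and 0.0586% of all probe sets. At an unadjusted p under 0.05 there were 9 of 37 lower and 0 higher, against 2.90% and 4.33% of all probe sets. Ir25a and Ir76b, both among these 9, are also in the list of taste neuron markers, so the 2 lists are not separate results for them. Arl6, the GTPase that recruits the BBSome to membranes (BBS3 in mammals), was at 7.31, 5.64 and 6.42 in homozygotes and at 7.62, 6.92 and 7.22 in heterozygotes. Its groups overlapped through homozygous replicate 1, and the difference of -0.80 did not pass (95% interval -2.01 to 0.41, limma adjusted p = 0.611). Without that array it was -1.23 (unadjusted p = 0.0207, limma adjusted p = 0.344). Of the other 3 measured genes of GTPases and membrane delivery, dnd (Arl3 in mammals) differed by -0.31, PrBP, a carrier of prenylated proteins, by 0.04 and Rab23 by 0.02. These 3 rested on homozygous replicate 1 as well, and without it they were -0.70 for dnd (unadjusted p = 0.0194, limma adjusted p = 0.334), -0.17 for PrBP and -0.49 for Rab23. Rab8, Rab11 and unc-119 had no probe set of their own in the annotation used. The phosphoinositide phosphatase INPP5E, which sets the ciliary lipid that tubby proteins bind in mammals, was at 7.06, 6.86 and 6.68 in homozygotes and at 6.88, 6.69 and 6.46 in heterozygotes. Its difference was 0.19 (95% interval -0.31 to 0.69), or 0.09 without homozygous replicate 1, and the tubby relative Tusp was under the background limit in all 6 arrays.

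The transport trains differed subunit by subunit. IFT-A, the complex that tubby proteins bind, had 2 of 4 subunits above background: Oseg6 differed by -0.61 (unadjusted p = 0.0281), with 1 homozygous value under the limit, and Oseg1 by -0.09 (-0.16 without homozygous replicate 1). The other 2, rempA and Oseg4, were under the limit in all 6 arrays. Of 8 IFT-B genes on the array 7 were above background, and all 7 had lower homozygous means, against 45.5% of the 7705 genes above background. Among them 3 had an unadjusted p under 0.05, against 5.84% of those genes, with 0 called over all probe sets. The homozygous values had an SD of only 0.0042 in nompB, 0.0061 in IFT57 and 0.0228 in Oseg2. Such narrow bands may be floors of these probe sets above the limit of 3, which was not tested. At a floor the homozygous mean cannot be the higher one, so the 7 of 7 is no separate result for these genes. Oseg2 was at 3.87, 3.88 and 3.84 in homozygotes and at 5.13, 4.56 and 5.06 in heterozygotes, a difference of -1.05 (limma adjusted p = 0.239). If the homozygous values of Oseg2 are at a floor, that difference is a bound. IFT46 differed by -1.46 and IFT52 by -1.11, and in both genes, as in BBS5, replicate 1 was the lowest array of each genotype. Of the motor genes, btv, a dynein heavy chain, had all 3 homozygous values under the limit and a heterozygous mean of 3.03, and the kinesin subunits Klp68D (-0.21) and Kap3 (0.03, and -0.12 without homozygous replicate 1) did not pass. IFT20 moved from -0.39 to -0.84 without that array (unadjusted p = 0.0313). CG3769, a putative dynein light intermediate chain, was under the limit in all 6 arrays, although it is 1 of the 9 genes counted at an unadjusted p under 0.05.

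At the ciliary base and among the regulators no gene passed at an unadjusted p under 0.05 with all 6 arrays. Of the 3 transition zone genes above background, dila differed by -0.64, TMEM216 by -0.39 and Cep290 by -0.06, and without homozygous replicate 1 dila was at -0.997 (unadjusted p = 0.0248) and TMEM216 changed sign to 0.13, while Cc2d2a and Mks1 were among the 4 under the limit in all arrays. Rfx, the transcription factor of ciliary genes in sensory neurons, was at 3.52, 3.58 and 3.67 in homozygotes and at 3.69, 3.85 and 4.09 in heterozygotes, which is -0.29 (limma adjusted p = 0.611). The receptors that work in sensory cilia had the largest differences of these lists. Ir25a fell by 3.67 on the log2 scale (limma adjusted p = 0.0176; 0.201 with the replicate number as a fixed block, where it was not called), Ir76b differed by -3.49 (0.484) and Orco, the odorant co-receptor, by -1.60 (0.611). Without homozygous replicate 1, which was the lowest array of Ir76b by more than 3 log2 units, these were -3.49 for Ir25a, -2.40 for Ir76b and -1.06 for Orco. The channels nan and iav were under the limit, so the cargo known for ktub in chordotonal neurons was not measurable in this tissue.

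**Figure D4:**
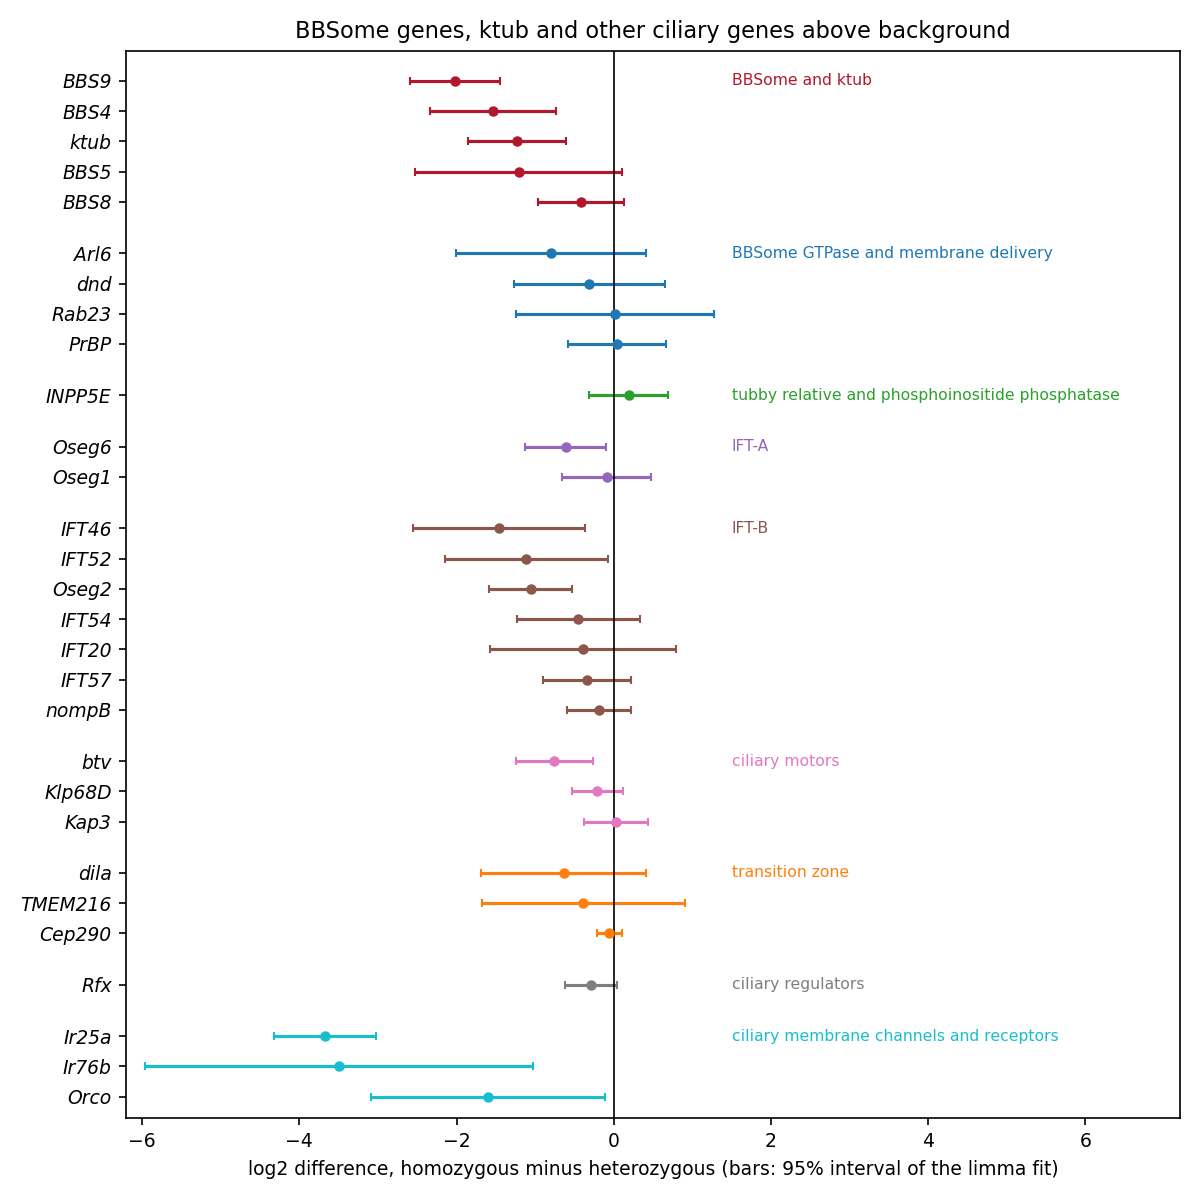
Log2 difference, homozygous minus heterozygous (horizontal axis), with the 95% interval of the limma fit, for the BBSome genes and ktub and for the genes of 8 ciliary lists that were above background in at least 1 genotype, grouped and coloured by list. Intervals of BBS9, BBS4 and ktub lie left of 0, as do those of 8 other genes, among them IFT46, Oseg2 and Ir25a.

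Of the 5 genes above background 3 lay on the chromosome arm of Poxn. BBS9, BBS4 and ktub are on 2R, which also holds Poxn, while BBS8 is on 2L, BBS1 on 3L and BBS5 on 3R, and 2427 of the 11982 genes on the array were annotated to 2R. These 3 genes on 2R had the largest shifts, at -2.02 (BBS9), -1.54 (BBS4) and -1.23 (ktub), beside -1.21 for BBS5 on 3R and -0.42 for BBS8 on 2L. The shifts of ktub and BBS5 differed by 0.018 with all 6 arrays (exact permutation test, two-sided, p = 1.0). Without homozygous replicate 1 they were -1.42 for ktub and -0.73 for BBS5. A dependence of the shifts on the arm was not tested. The labels do not say what else the poxn70 chromosome carries, so linked differences between the homozygous and heterozygous flies and the loss of Poxn cannot be told apart in this design. At an unadjusted p under 0.05, 5.36% of the genes on 2R were lower, against 4.17% on 2L, 3.24% on 3L, 3.36% on 3R, 2.99% on the X chromosome and 13.8% of the 65 genes on chromosome 4. The share of higher genes on 2R was larger than its lower share, at 6.10%. Higher shares elsewhere were 5.22% on 2L, 3.92% on 3L, 4.84% on 3R, 3.90% on the X chromosome and 6.15% on chromosome 4. In gene order, Poxn lies between BBS4 and ktub, with 796 annotated genes between BBS4 and Poxn and 1075 between Poxn and ktub. BBS9 follows ktub after 62 annotated genes, of which 33 had a probe set of their own and the rest were not measured. Of the 33, 27 were read at or above the background limit in at least 1 array. The median difference of these 27 was 0.06, with a range from -1.03 to 0.68, and 2 were lower and 2 higher at an unadjusted p under 0.05. Both ktub (-1.23) and BBS9 (-2.02) lay outside the range of the measured genes between them, the nearest being ASPP at -1.03. Among the flanking genes, Cht4, 9 genes from ktub on its other side, differed by -1.66, which is more than ktub (unadjusted p = 0.0995, limma adjusted p = 0.611). ASPP and Cht4 were picked out after their values were seen.

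**Figure D5:**
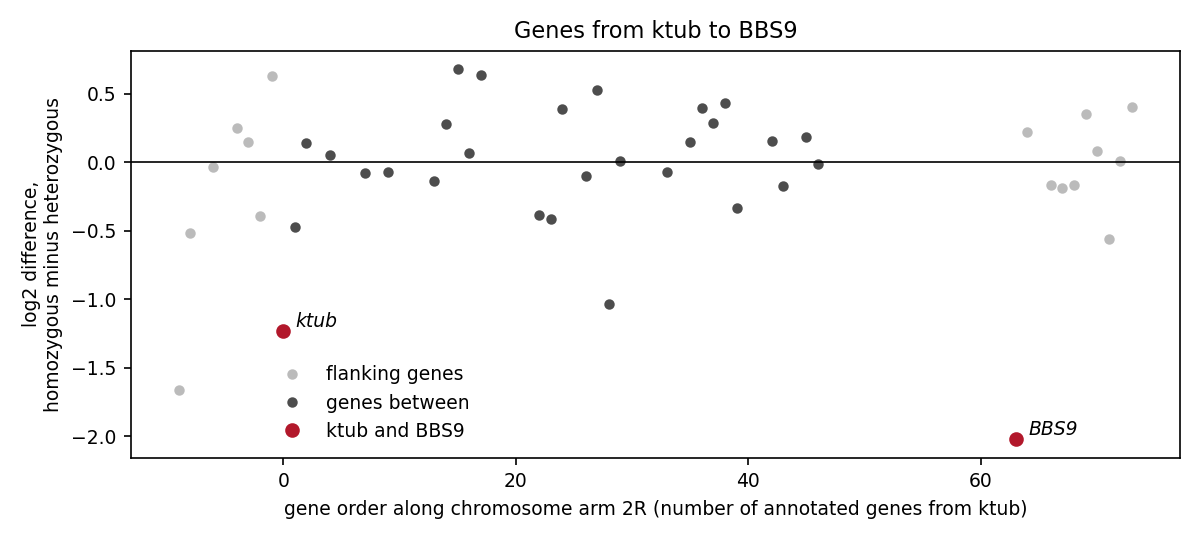
Log2 difference, homozygous minus heterozygous (vertical axis), of genes read at or above the background limit, in their order along chromosome arm 2R (horizontal axis, number of annotated genes from ktub), for ktub and BBS9 (red), the 27 genes between them (dark grey) and flanking genes (light grey). The genes between lie from -1.03 to 0.68, above both red points, and the flanking gene Cht4 lies at -1.66, between the red points in size.

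The genes most like the BBSome genes and ktub over the 6 arrays were sought among 3789 other genes above background that ranged over at least 1 log2 unit. Likeness was Pearson's r with the mean of the 6 centred profiles, a measure over 6 arrays in which the genotype difference takes the larger part. The 5 closest were CG30053 (r = 0.997), CG32271 (0.996), CG8157 (0.996), CG6290 (0.996) and Obp18a (0.996), an odorant-binding protein. All 5 fell by more than the difference of BBS9 and were called by limma, with adjusted p from 0.0104 to 0.0378, against 0.314% of all probe sets called lower. A high r with a profile set mostly by genotype favours genes that are called, so these calls are no separate result. CG30053 was at 2.93, 2.51 and 2.83 in homozygotes, all under the limit, and at 5.43, 5.72 and 5.86 in heterozygotes. Obp18a was at 11.02, 10.57 and 10.69 in homozygotes and at 13.78, 13.93 and 13.94 in heterozygotes. With the replicate number as a fixed block their adjusted p ran from 0.267 to 0.275, and none of the 5 was called. In all 5 homozygous replicate 2 was the lowest array, as in BBS4 and BBS8, and no ciliary gene of the lists was among the 5. The mean profile used in the search was itself lowest in that array (-0.69, against -0.46 and -0.47 in homozygous replicates 1 and 3). The search therefore favoured genes with that lowest array, and sharing it is no separate result either.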

How the data were processed

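Total RNA of 3 homozygous and 3 heterozygous poxn70 proboscis samples, about 50 ng each, was turned into biotin-labelled cRNA by 2 rounds of amplification and read on single-colour arrays, as the labels' protocols state. The log2 values were made by the authors with GCRMA, per the submitters' processing notes (its version: not given in the sources used here). GCRMA corrects background from probe sequence, normalizes between arrays and compresses dim probe sets. The table held 18952 probe sets, of which 183 controls were left out. Of the 18769 tested, 48.2% had all 6 values under 3. Names came from the platform annotation, updated through Entrez identifiers in a RefSeq table (Release 6 plus ISO1 MT), which matched 13544 of 13647 one-gene probe sets. No build is named for the values, so that table gave names, arms and gene order, not coordinates. Of several probe sets of a gene, that with the highest mean was used.

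The genotype difference came from limma 3.58.1 (R 4.3.3) with lmFit and eBayes under an intensity trend, over all probe sets, with Benjamini-Hochberg adjustment. The fit was tested on simulated data. Alternatives covered scaling, dim probe sets, the variance model, replicate blocks, probe set choice and left-out arrays. Labels number the replicates from 1 to 3 in each genotype without naming a shared batch. Deviations of same-numbered arrays from their group means correlated at 0.372, 0.288 and 0.142, a pairing that rests on the data, since no label says it. The reported fit and the exact tests over 6 arrays have no replicate block, and the blocked value stands beside each result whose call it changed. Genes named were the 6 members, the 5 most alike, and from each ciliary list all called genes and otherwise the 3 with the smallest p, and any others named complete a count or a list. The members and lists were chosen with earlier results of these data known.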

Additional observations from a re-analysis of the deposited data

How the results depend on the processing

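The differences of BBS4, BBS5, BBS8, BBS9 and ktub kept their sign in all 18 alternatives. BBS9 was called at -2.02 with dim probe sets left out or set to 3, with the random replicate block and with probe sets averaged, and at -2.04 when centred on bright probe sets, so 1 of the 6 genes was called there, against 0 as reported. The fixed replicate block called 0 probe sets in all (smallest adjusted p 0.131), and Ir25a was not called in it. With the fixed replicate block and the dimmer 50% left out, an alternative chosen after seeing the data, BBS9 had an adjusted p of 0.0858. BBS1, at background, ranged from -0.17 to 0.10 when 1 array was left out. The median over the 5 genes above background was -1.11 after renewed quantile normalization, -1.37 without both arrays numbered 1, and -1.54 to -1.21 with 1 array left out. Of the other ciliary genes, 0 were called with the fixed replicate block or without both arrays numbered 1, and 0 to 1 with 1 array left out (0 without replicates 2 or 3 of either genotype, where Ir25a was not called); the 9 at an unadjusted p under 0.05 became 13 when both arrays numbered 1 were left out and 5 to 11 when 1 array was, with the fewest lacking heterozygous replicate 3. Other differences changed sign: PrBP (-0.17 to 0.24 with 1 array left out, -0.061 without both arrays numbered 1), rempA (-0.0038 quantile-normalized, -0.019 centred), Oseg4 (-0.014 centred, -0.0069 to 0.015 with 1 array left out), Mks1 (-0.0014 and -0.016), fd3F (0.0038 with averaged probe sets, 0.0043 without both arrays numbered 1, -0.0019 to 0.0026 with 1 array left out), Rab23 (-0.0044 centred, -0.36 without both arrays numbered 1, -0.49 to 0.41 with 1 array left out), Oseg1 (0.051 quantile-normalized, -0.16 to 0.017 with 1 array left out), Kap3 (-0.093 without both arrays numbered 1, -0.12 to 0.10 with 1 array left out), Cep290 (0.060 quantile-normalized), TMEM216 (-0.65 to 0.13 with 1 array left out) and Snap25 (-0.082 without both arrays numbered 1, -0.070 to 0.13 with 1 array left out). Hml was called in 1 of the 18. Fits that leave out arrays rest on fewer arrays, and fits with fewer probe sets adjust over fewer tests. Why calls and counts changed between fits was not tested. BBS1 has no value in fits without dim probe sets. Signal over background limits BBS1, Tusp, rempA, Oseg4 and 4 of the 7 measured transition zone genes, for which no difference can be read.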
